A study of Mus musculus with 8 samples.

Results

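The genes described here are 41 mouse genes for protein folding and protein disposal in the endoplasmic reticulum (ER), 24 for folding and 17 for ER-associated degradation (ERAD). The folding genes are 14 chaperones and their helpers and 10 disulfide enzymes. Members were chosen by name from their known function, and each was matched by its Ensembl gene ID to 1 row of a count table of 55414 gene IDs. All 41 passed the filter on low counts, among 13368 genes tested.

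RNA was measured by RNA-seq in Paneth cells sorted from the small intestine of wild-type mice (WT), with 4 libraries from mice that had received PBS, the control, and 4 from mice that had received TNF, an inflammatory cytokine, 3 hours before the tissue was taken. The series asked how TNF changes gene expression in these cells. The labels give neither the age of the mice nor the dose of TNF. Libraries held 23824717 to 32576077 counts, and all 7 Paneth markers of the list used here were tested, with a summed level of 310880 to 459022 normalized CPM (counts of a gene scaled by the size of its library) in PBS and 388025 to 1208489 in TNF. The upper limit is TNF replicate 4, and the other 3 TNF libraries reached 452516. TNF replicate 4 stood apart from the others on the second principal component, and its scaling factor was 0.448 against 0.995 to 1.36 in the other 7 libraries. Some markers of other cells were called too, by the criterion given with the promoter results. By that criterion 43.0% of all tested genes were called, 23.4% higher in TNF and 19.6% lower. Among the lists that follow, goblet and immune markers were called about as often as that, and all of these lists are short. Of 5 stem cell markers 4 were lower in TNF, of 6 goblet cell markers 1 was higher (Muc2) and 2 were lower, and 3 of 4 tested enteroendocrine markers were higher. Of 7 enterocyte markers 1 was lower (Apoa4, log2 fold change -3.94), with sums of 28.1 to 42.5 normalized CPM in PBS and 15.3 to 59.8 in TNF, and none of 3 tuft cell markers was called. Of 5 further immune markers 2 were tested and 1 was higher (Cd52, 1.69), and of 4 stromal markers Vim alone was tested and was higher (2.05). The immune list summed to 7.06 to 13.0 normalized CPM in PBS and 10.7 to 68.7 in TNF, and the stromal list to 0.186 to 0.452 and 1.23 to 1.66. The stem markers summed to 1454 to 2351 normalized CPM in PBS and 1312 to 1855 in TNF, the goblet markers to 6518 to 10229 and 10954 to 22753, and the enteroendocrine markers to 10.3 to 13.2 and 30.3 to 61.0. The upper TNF limits of the enterocyte, immune, goblet and enteroendocrine sums are again those of TNF replicate 4, without which they were 20, 13.8, 11653 and 39.9. The part of these cells in the results below was not tested.

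Paneth cells secrete large amounts of antimicrobial peptides, many of them held in shape by disulfide bonds, and so depend on the folding capacity of the ER. New chains entering the ER are bound by the HSP70 chaperone BiP (Hspa5) and its co-chaperones, are retained by the lectins calnexin (Canx) and calreticulin (Calr) while their sugars are trimmed, and receive disulfide bonds from protein disulfide isomerases, which the oxidases Ero1a and Ero1b recharge. Chains that do not fold are picked out by mannosidases and lectins (Edem1 to Edem3, Os9, Erlec1), passed to the Sel1l-Syvn1 ubiquitin ligase and the derlins, and pulled into the cytosol by the ATPase Vcp for destruction. Many of these genes are known targets of the unfolded protein response (UPR), whose factors Atf6 and Xbp1 act through short promoter elements called ERSE, ERSE-II and UPRE.

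The promoter elements are described first. Their letters were not used to choose the members. Since many members are known targets of the factors that act through these elements, their frequency here is no independent finding. In the reference genome (GRCm39), windows from 250 bases before to 50 bases after the canonical transcription start of GENCODE were searched on both strands. ERSE was searched as CCAAT, then 9 bases of any kind, then CCACG. It occurred in 27 of 21757 protein-coding promoters (0.124%), and 10 of these belonged to the 41 members (24.4%), 8 to folding genes and 2 to ERAD genes. ERSE-II, searched as ATTGG, then 1 base of any kind, then CCACG, occurred in 15 promoters in all (0.0689%), of which 4 were members: Hyou1, Dnajb11, Manf and Herpud1. The UPRE core, TGACGTGG, was present in 157 promoters (0.722%) and in 2 members, Hyou1 and Vcp. The distal ERSE-II of Hyou1 and its UPRE core overlap. The ERSE copies are printed as stretches of 30 bases, each read on the strand that runs from CCAAT to CCACG, with the 19 bases of the element in capitals, so that the fixed ends and the variable middle can be compared between members with different responses to TNF. Each name is followed by the interval and strand.

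Hspa5, chr2:34662032-34662061, plus strand: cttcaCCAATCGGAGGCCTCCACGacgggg
Hsp90b1 distal copy, chr10:86541496-86541525, minus strand: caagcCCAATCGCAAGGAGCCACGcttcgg
Hsp90b1 proximal copy, chr10:86541392-86541421, plus strand: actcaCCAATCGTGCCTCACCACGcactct
Calr, chr8:85573699-85573728, plus strand: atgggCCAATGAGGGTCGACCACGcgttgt
Canx, chr11:50216621-50216650, minus strand: attgaCCAATCACCACGCTCCACGaagaat
Dnajc3, chr14:119175234-119175263, plus strand: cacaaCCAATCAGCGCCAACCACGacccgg
Creld2, chr15:88703717-88703746, minus strand: gtggaCCAATTGAGGCTCGCCACGagaagc
Pdia6, chr12:17316487-17316516, plus strand: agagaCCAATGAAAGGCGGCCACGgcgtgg
Ero1b, chr13:12580557-12580586, minus strand: ggcggCCAATGAGGCGGGACCACGaggcct
Syvn1, chr19:6096557-6096586, plus strand: cgcaaCCAATCGGCGGTAGCCACGggaaca
Derl3, chr10:75729070-75729099, minus strand: gctagCCAATGGGGAAGTCCCACGgtagag

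The shorter ERSE-II of Herpud1 is shown in the same way, with its 11 bases in capitals, because Herpud1 was the only called member with this element.

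Herpud1, chr8:95113000-95113029, plus strand: cgctgATTGGGCCACGttggacactgacct

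For Hspa5, Hsp90b1 and Derl3 the whole stretch of 180 bases before the start is given, since these members carry the same element and had different responses. Capitals again mark the ERSE letters, and each is written 5′ to 3′ on the strand of its gene.

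Hspa5, chr2:34661924-34662103, plus strand: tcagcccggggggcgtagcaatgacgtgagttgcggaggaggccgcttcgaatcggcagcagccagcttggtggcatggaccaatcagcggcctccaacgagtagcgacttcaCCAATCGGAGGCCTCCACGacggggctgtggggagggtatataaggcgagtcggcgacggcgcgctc
Hsp90b1, chr10:86541379-86541558, minus strand: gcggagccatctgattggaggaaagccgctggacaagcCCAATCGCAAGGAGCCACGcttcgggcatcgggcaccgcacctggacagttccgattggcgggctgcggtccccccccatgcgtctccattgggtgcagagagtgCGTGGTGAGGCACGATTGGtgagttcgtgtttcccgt
Derl3, chr10:75729058-75729237, plus strand: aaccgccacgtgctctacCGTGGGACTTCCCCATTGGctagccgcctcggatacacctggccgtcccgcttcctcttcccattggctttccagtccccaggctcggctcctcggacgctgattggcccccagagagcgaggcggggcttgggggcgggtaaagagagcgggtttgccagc

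Members with an ERSE did not share a response. At an adjusted p under 0.05 (quasi-likelihood test of edgeR, adjusted over all genes tested), 43.0% of all tested genes were called, 23.4% higher in TNF and 19.6% lower. Against that background, 1 of these 10 was called higher (Hspa5), 6 were called lower (Hsp90b1, Dnajc3, Creld2, Pdia6, Ero1b and Derl3) and 3 were not called (Calr, Canx and Syvn1). Their median log2 fold change was -0.52, and that of the members without the letters was -0.15. Of the 4 members with ERSE-II, Herpud1 was called lower and the other 3 were not called. A motif of NF-kB, the main transcription factor downstream of TNF receptors, occurred in 1952 of all promoters (8.97%) and in 7 members (17.1%), of which Ero1a was called higher, Creld2, Pdia6, Ero1b and Derl3 were called lower and Calr and Edem1 were not called. In Derl3 this motif lies inside the ERSE. None of the genes in the 3 further lists described further on held an ERSE or ERSE-II in its window. These matches are letters in a sequence and say nothing of whether a factor binds there.

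**Figure D1:**
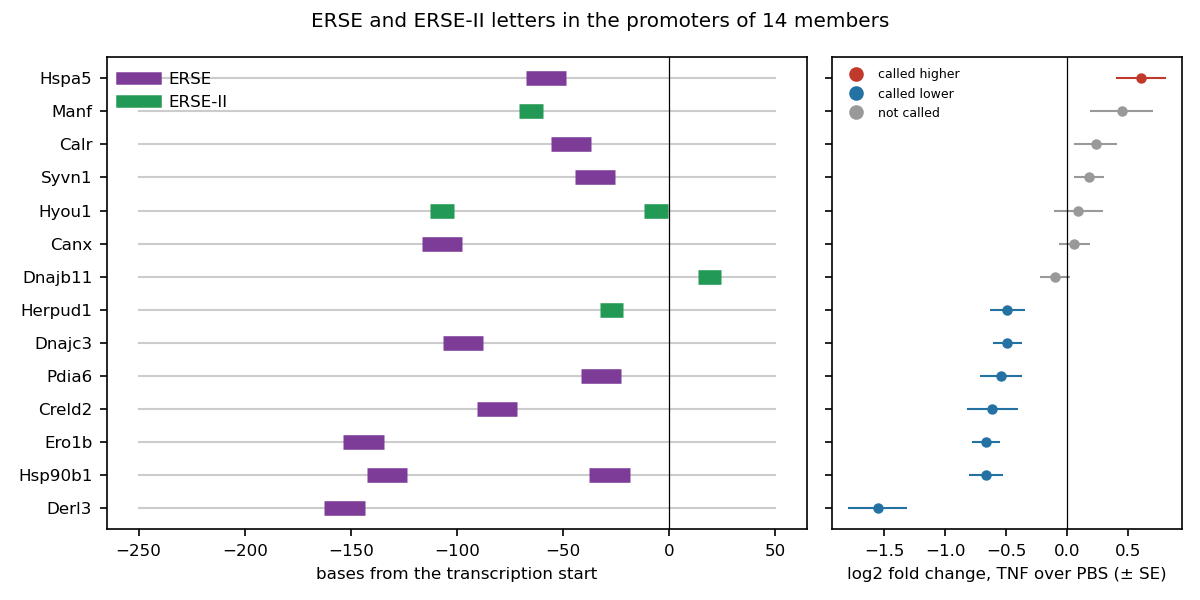
Left, positions of ERSE (purple) and ERSE-II (green) in the windows of the 14 members that hold either, in bases from the transcription start at 0. Right, the log2 fold change of the same gene in TNF over PBS, with its SE, colored by call. Genes with an ERSE stand at the top (Hspa5), in the middle (Calr, Syvn1, Canx) and at the bottom (Derl3) of the order by fold change.

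Most of the change in the 41 genes was downward. By the same criterion 18 members were called. The background was high, since 43.0% of all tested genes were called, and the members' 43.9% lies next to it. The directions were less evenly split than in the background. Of the members 15 were called lower (36.6%) and 3 higher (7.32%), while 19.6% of all tested genes were called lower and 23.4% higher. The values of the 4 TNF and the 4 PBS libraries did not overlap in 15 members (36.6%) and in 42.1% of all tested genes. Scaling by library size alone shifts the median log2 fold change of all genes to -0.38 from 0.03. It gave 14 members called lower and 0 higher, where 18.1% of all tested genes were called lower and 5.66% higher. These were not all the same members, since Sil1, Os9 and Erlec1 lost their lower call and Sdf2l1 and Pdia3 gained one. Since these are bulk samples, fewer cells of a type and less RNA per cell cannot be told apart in any of these values.

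With all 8 libraries, folding and ERAD genes had close summaries. Of the 24 folding genes 2 were called higher, 9 lower and 13 not called, and of the 17 ERAD genes 1 was called higher, 6 lower and 10 not called. The called share was 45.8% for folding and 41.2% for ERAD genes. The median log2 fold change was -0.15 for folding genes and -0.16 for ERAD genes, beside 0.03 for all tested genes. Single libraries moved these medians, with -0.31 for folding and -0.15 for ERAD genes without TNF replicate 4, -0.04 and -0.11 without TNF replicate 3, -0.27 and -0.25 without PBS replicate 4, and -0.17 and -0.10 without PBS replicate 2. The spread was wider toward lower values in ERAD, with log2 fold changes from -1.56 to 0.57, against -0.77 to 0.89 for folding genes. Among the folding genes, the chaperones had a median of -0.04 and the disulfide enzymes one of -0.25.

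**Figure D2:**
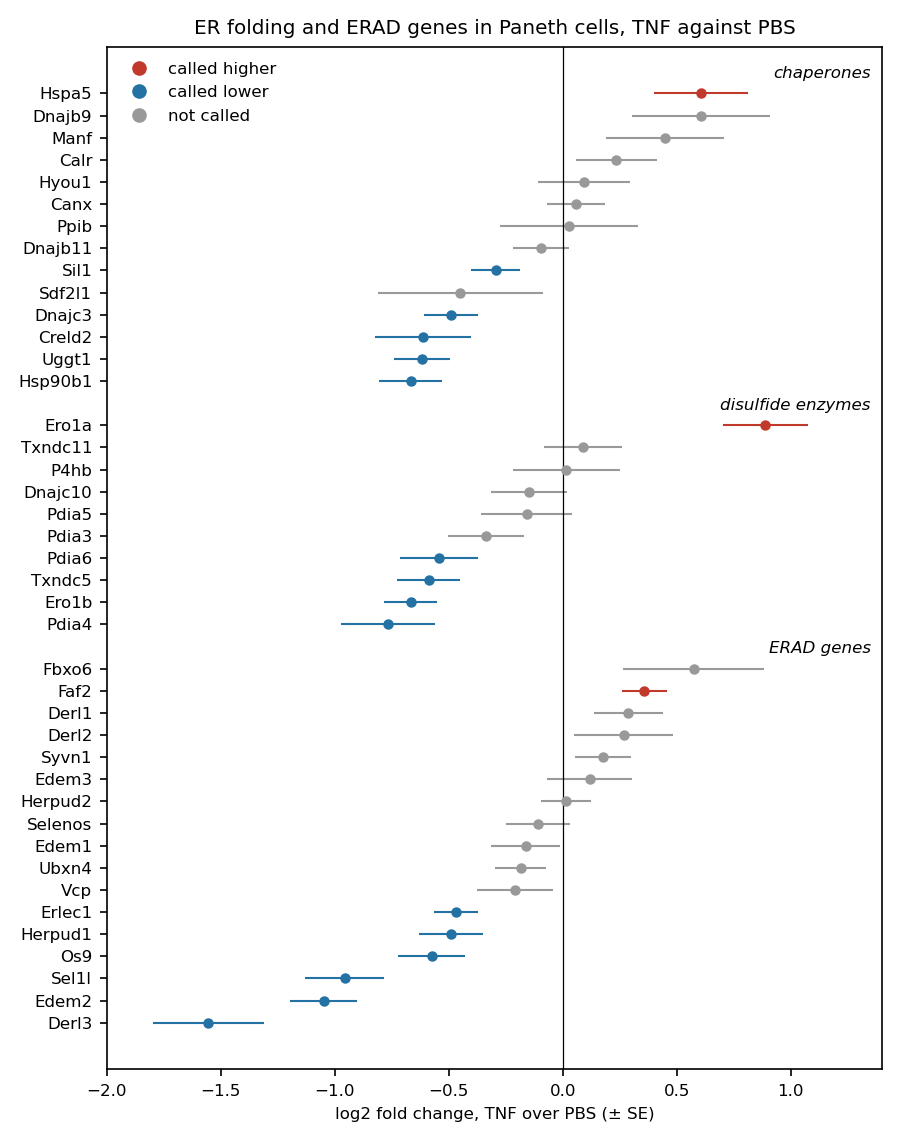
Log2 fold change of TNF over PBS for the 41 genes, with bars of 1 SE, in their 3 role groups and ordered by fold change within each. Red marks the 3 members called higher (Hspa5, Ero1a and Faf2), blue the 15 called lower and grey the 23 not called.

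The HSP70 cycle held the only chaperone called higher. Of its 9 genes 4 were called (44.4%), beside 43.0% of all tested genes. Hspa5, the central ER chaperone, had 622, 553, 561 and 331 normalized CPM in PBS replicates 1 to 4 and 788, 820, 659 and 880 in TNF. The groups did not overlap, but PBS replicate 4 lay far below the other PBS libraries. The fold was 1.52 (log2 0.61, SE 0.21, edgeR adjusted p = 0.0357). The call was lost when any of PBS replicates 2, 3 and 4 or TNF replicates 1 and 2 was left out, with adjusted p from 0.0637 to 0.104, and the log2 fold change without PBS replicate 4 was 0.40. Scaled by library size alone it was 0.21. The gene shares 44.2% of its exonic bases with Rabepk on the opposite strand, which was at a mean of 6.06 normalized CPM.

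Partners of Hspa5 were lower or not called. Hsp90b1 (GRP94), the HSP90 protein of the ER that takes clients on from BiP, had 362, 291, 321 and 265 normalized CPM in PBS and 205, 204, 174 and 197 in TNF. All TNF libraries were below all PBS libraries, with a fold of 0.630 (log2 -0.67, SE 0.14, edgeR adjusted p = 0.00285), and it stayed called with any library left out. Dnajc3, a J-domain helper of BiP, went from 277, 257, 266 and 232 in PBS to 184, 194, 177 and 178 in TNF. Its groups did not overlap either, and its fold was 0.711 (log2 -0.49, SE 0.12, edgeR adjusted p = 0.00642). Sil1, which exchanges the nucleotide of BiP, was called lower by a small margin (41.2 ± 4.23 in PBS and 33.6 ± 1.48 normalized CPM in TNF, mean ± SD, n = 4, edgeR adjusted p = 0.0479). It stayed called only when PBS replicate 4 was left out, and in the other 7 cases its adjusted p was 0.0574 to 0.136. Creld2, an ER stress-inducible protein, was called lower although its groups overlapped (44.9 ± 11.5 and 29.4 ± 5.89, edgeR adjusted p = 0.0365). That call was lost on leaving out any of PBS replicates 1 to 3 or either of TNF replicates 1 and 3, where the adjusted p was 0.0647 to 0.0997.

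The other 5 members of the cycle, in order of their log2 fold change, were not called: Dnajb9 (0.61), Manf (0.45), Hyou1 (0.09), Dnajb11 (-0.10) and Sdf2l1 (-0.45). Dnajb9, another J-domain helper, had 40.4 normalized CPM in PBS replicate 4 and 84.4 to 89.0 in the other PBS libraries, and ran from 59.9 to 153 in TNF. Without TNF replicate 3 its log2 fold change was 0.82 and it was called (edgeR adjusted p = 0.0269). Manf, a secreted protein that binds BiP, showed the same low value in PBS replicate 4 (52.1 against 106 to 110). Its exons overlap by 32.6% with Rbm15b on the same strand, so its counts are uncertain. Sdf2l1, the partner of Dnajb11, was at 33.1, 35.4 and 23.2 normalized CPM in TNF replicates 1 to 3 and at 88.2 in TNF replicate 4, against 40.1 to 73.3 in PBS. Without TNF replicate 4 its log2 fold change was -0.98 and it was called lower (edgeR adjusted p = 0.00195).

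Of the 4 genes of the glycoprotein folding cycle, 1 was called (25.0%, beside 43.0% of all tested genes). Uggt1, which puts a glucose back on sugars of unfolded glycoproteins so that they are retained, had 203, 202, 197 and 165 normalized CPM in PBS and 133, 134, 116 and 117 in TNF. No TNF value reached the lowest PBS value. Its fold was 0.651 (log2 -0.62, SE 0.12, edgeR adjusted p = 0.00219), and the call held with each library left out. The lectins that bind these glucosylated sugars, Calr (527 ± 99.7 in PBS and 620 ± 67.9 in TNF) and Canx (220 ± 22.9 and 229 ± 14), had log2 fold changes of 0.23 and 0.06 and were not called. Pdia3, the disulfide isomerase that works with both, had a log2 fold change of -0.34 and was not called. It was called lower without PBS replicate 4 (log2 -0.47, edgeR adjusted p = 0.0389) and without TNF replicate 4 (log2 -0.44, edgeR adjusted p = 0.0157).

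Ero1a and Ero1b, the pair of oxidases that feed disulfide bonds to the isomerases, went opposite ways. Ero1a had 29.5, 24.2, 25.5 and 25.7 normalized CPM in PBS and 42.3, 60.1, 59.0 and 32.4 in TNF. The groups did not overlap and the fold was 1.85 (log2 0.89, SE 0.19, edgeR adjusted p = 0.00298). Scaling by library size alone gave 0.56 and no call (adjusted p = 0.301). Ero1b had 52.4, 64.2, 60.4 and 49.0 in PBS and 34.6, 34.4, 37.7 and 35.6 in TNF. Here too no values overlapped, with the opposite sign and a fold of 0.630 (log2 -0.67, SE 0.12, edgeR adjusted p = 0.000901). Per kilobase of exon, Ero1b was the more abundant in PBS (7.49 ± 0.932 against 4.92 ± 0.428 CPM per kilobase for Ero1a, mean ± SD, n = 4). In TNF the levels were 9.10 ± 2.53 for Ero1a and 4.72 ± 0.200 for Ero1b. This turned order depends on the length used, since with the canonical transcript the TNF levels were 10.9 ± 3.04 and 8.30 ± 0.352, within the spread of Ero1a.

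Among the isomerases themselves 3 were called lower and none higher. Txndc5, a thioredoxin-domain isomerase, had 474, 454, 437 and 376 normalized CPM in PBS and 305, 309, 287 and 256 in TNF. Its groups were separate, with a fold of 0.665 (log2 -0.59, SE 0.14, edgeR adjusted p = 0.00545). Pdia4 had a fold of 0.588 and Pdia6 of 0.686, and in both the groups overlapped (76.0 ± 20.1 and 44.7 ± 7.57 normalized CPM for Pdia4, 329 ± 37.6 and 226 ± 47.7 for Pdia6, edgeR adjusted p = 0.0117 and 0.0243). The call of Pdia6 was lost on leaving out either PBS replicate 2, PBS replicate 3 or TNF replicate 3 (adjusted p 0.0607 to 0.0718), and that of Pdia4 held without any library. Pdia5, Dnajc10, which reduces disulfide bonds for degradation, and Txndc11 were not called, with log2 fold changes of -0.16, -0.15 and 0.09.

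P4hb, the classical protein disulfide isomerase, was by far the most abundant member per kilobase. It stood at 608 ± 71.8 CPM per kilobase of exon in PBS, followed by Calr at 138 ± 26.2, and by Txndc5, Hspa5 and Pdia3 at 95.2 ± 9.17, 93.0 ± 23.0 and 90.7 ± 12.4, which did not differ beyond their spread. With the canonical transcript these 3 were at 153 ± 14.7, 104 ± 25.8 and 116 ± 15.9, and Txndc5 stood above the other two. P4hb reads made up 24.9% to 28% of all reads on the 41 genes in 7 libraries and 35.0% in TNF replicate 4. P4hb was not called (log2 0.02, SE 0.23). TNF replicate 4 held 3315 normalized CPM and the other 3 TNF libraries 1892 to 2003, below PBS replicates 1 to 3 and next to PBS replicate 4 (1887). The same library stood out for Ppib, a proline isomerase of the ER, at 452 normalized CPM against 163 to 192 in the other TNF libraries and 194 to 260 in PBS. Without TNF replicate 4 Ppib was called lower (log2 -0.43, edgeR adjusted p = 0.0125). Exons of Ppib overlap those of Snx22 on the opposite strand by 26.4%, so that its counts may hold reads of either gene.

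**Figure D3:**
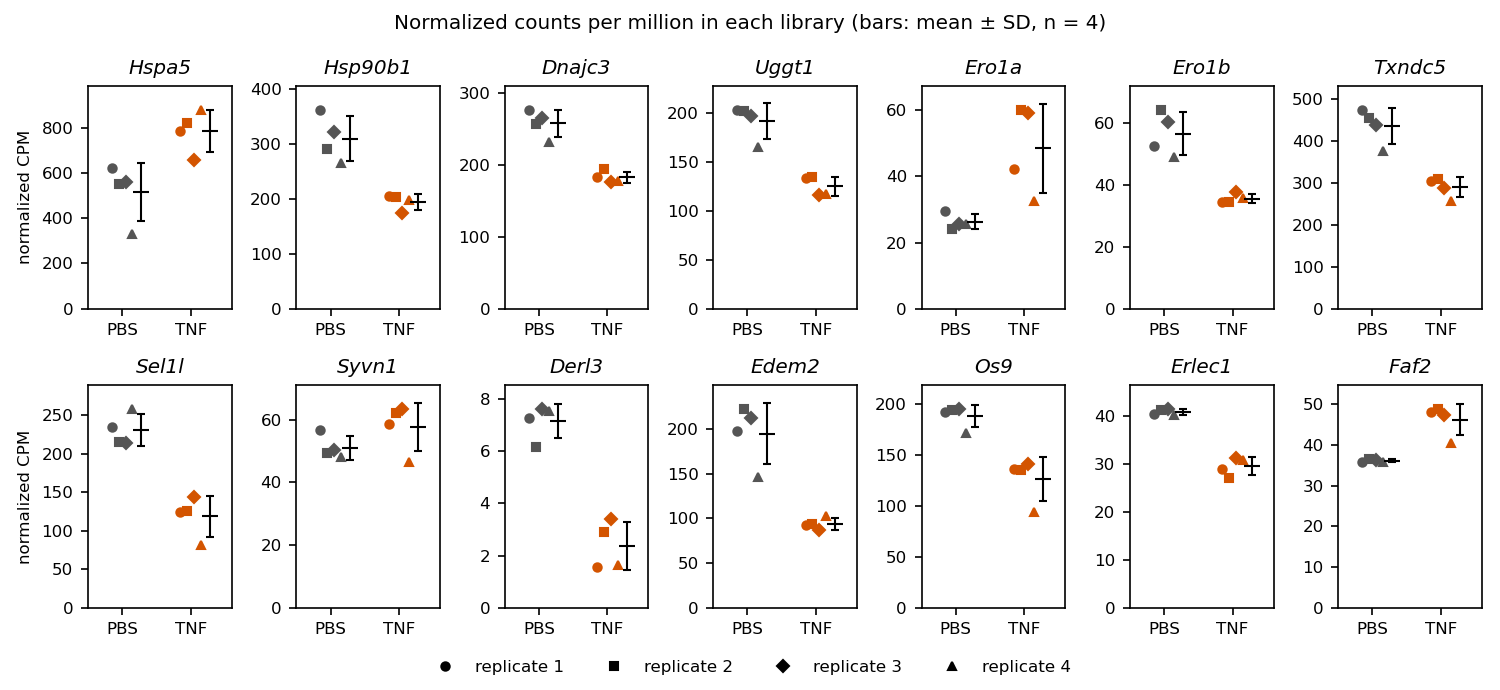
Normalized CPM in each library for 14 members, with PBS in grey, TNF in orange, a symbol for each replicate, and the mean ± SD of 4 libraries at the side. All axes start at 0. In all panels except that of Syvn1 the 4 TNF values lie apart from the 4 PBS values, and PBS replicate 4 is the lowest PBS library in all panels except those of Ero1a, Sel1l and Derl3.

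The 3 largest falls of all 41 members, Derl3, Edem2 and Sel1l, were in ERAD genes. The 17 ERAD genes follow in the order of their roles, from the mannosidases and lectins through the ligase and its channel to the cytosolic side.

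Edem2, which starts the trimming of mannose that marks a glycoprotein for ERAD, had 198, 222, 212 and 146 normalized CPM in PBS and 92.3, 93.3, 87.3 and 103 in TNF. The TNF values were close together and all below the PBS values, with a fold of 0.483 (log2 -1.05, SE 0.15, edgeR adjusted p = 0.000239). Its relatives were not called. Edem1 had 243 ± 36.2 normalized CPM in PBS and 217 ± 25.1 in TNF (log2 -0.16). Edem3 had 119 ± 7.68 and 129 ± 32.6 (log2 0.12), and without TNF replicate 4 (80.1, against 138 to 148 in the other TNF libraries) it was called higher, with a log2 fold change of 0.30 and an edgeR adjusted p of 0.0161. Per kilobase of exon, Edem2 was the most abundant of the 3 in PBS (39.5 ± 6.82 CPM per kilobase, beside 25.7 ± 3.82 for Edem1 and 17.5 ± 1.14 for Edem3). In TNF the levels per kilobase were 19.1 ± 1.31, 22.9 ± 2.65 and 19.0 ± 4.82 in that order, and those of Edem2 and Edem3 did not differ beyond their spread. With the length of the canonical transcript they were 27.4 ± 1.88 for Edem2 and 19.2 ± 4.88 for Edem3, further apart than either SD.

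Os9 and Erlec1, the lectins that read the trimmed sugars for the ligase, were both lower. Os9 had 192, 194, 195 and 172 normalized CPM in PBS and 136, 135, 141 and 94.1 in TNF. All TNF libraries were below PBS, TNF replicate 4 the furthest, and the fold was 0.672 (log2 -0.57, SE 0.15, edgeR adjusted p = 0.00897). Erlec1 had 40.4, 41.4, 41.5 and 40.3 in PBS and 29.0, 27.1, 31.3 and 30.8 in TNF. Its values varied little within groups, with a fold of 0.722 (log2 -0.47, SE 0.10, edgeR adjusted p = 0.00259). Neither was called by library size alone (Os9 log2 -0.90, Erlec1 log2 -0.86, adjusted p = 0.0737 and 0.0539).

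In the ligase complex the adaptor was lower and the ligase itself was not called. Sel1l, the adaptor that holds it together, had 235, 215, 214 and 258 normalized CPM in PBS and 124, 126, 144 and 81.2 in TNF. The groups were far apart and the fold was 0.515 (log2 -0.96, SE 0.17, edgeR adjusted p = 0.00128). Syvn1, its catalytic partner also known as HRD1, had 56.6, 49.4, 50.2 and 48.1 in PBS and 58.8, 62.1, 63.4 and 46.5 in TNF. TNF replicates 1 to 3 were above all PBS libraries and TNF replicate 4 below them, and it was not called (log2 0.18, SE 0.12, edgeR adjusted p = 0.274). Without TNF replicate 4 it was called higher (log2 0.28, edgeR adjusted p = 0.0250). Herpud1, a membrane protein that binds the complex, was lower, at 276 ± 18.6 normalized CPM in PBS and 197 ± 28.6 in TNF (fold 0.712, edgeR adjusted p = 0.0169). Without PBS replicate 2 its adjusted p was 0.0520. Its relative Herpud2 had a log2 fold change of 0.02.

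Of the derlins, the channel proteins of ERAD, only Derl3 was called. Derl3 had 7.26, 6.17, 7.6 and 7.53 normalized CPM in PBS and 1.56, 2.91, 3.40 and 1.63 in TNF. No values overlapped and the fold was 0.340 (log2 -1.56, SE 0.24, edgeR adjusted p = 0.000483), at a low level with as few as 19 counts in a library. Derl1 (67.8 ± 12.6 and 82.7 ± 7.65 normalized CPM) and Derl2 (29.2 ± 4.07 and 35.2 ± 12.4) had log2 fold changes of 0.29 and 0.27 and were not called. Derl3 is known to be abundant in plasma cells, so the 7 plasma and B cell markers were read beside it. Pou2af1, the only marker of that list to pass the filter, was lower as well (5.79 to 8.53 normalized CPM in PBS and 1.45 to 3.58 in TNF, log2 -1.52). Jchain, Igha and Igkc had at most 2 counts in any library, and Mzb1, Tnfrsf17 and Cd79a were at 0 in all 8. The list summed to 5.84 to 8.53 normalized CPM in PBS and 1.56 to 3.58 in TNF.

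On the cytosolic side Faf2, which brings Vcp to the ER membrane, was higher. It had 35.9, 36.6, 36.2 and 35.8 normalized CPM in PBS and 48.2, 48.8, 47.4 and 40.5 in TNF. All TNF libraries were above PBS and the fold was 1.28 (log2 0.36, SE 0.10, edgeR adjusted p = 0.0145). The call was lost on leaving out any of PBS replicates 1 and 4 and TNF replicates 1 and 2 (adjusted p 0.0683 to 0.12), and by library size alone the log2 fold change was -0.002. Vcp itself had 142 to 221 normalized CPM in PBS and 149 to 188 in TNF (log2 -0.21) and was not called. Selenos and Ubxn4, membrane anchors of Vcp, had log2 fold changes of -0.11 and -0.19, and Fbxo6, a ligase subunit that recognizes sugars, of 0.57, none of them called. The value of Fbxo6 came from TNF replicate 4, at 18.6 normalized CPM against 6.49 to 7.34 in the other TNF libraries and 5.63 to 7.26 in PBS.

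**Figure D4:**
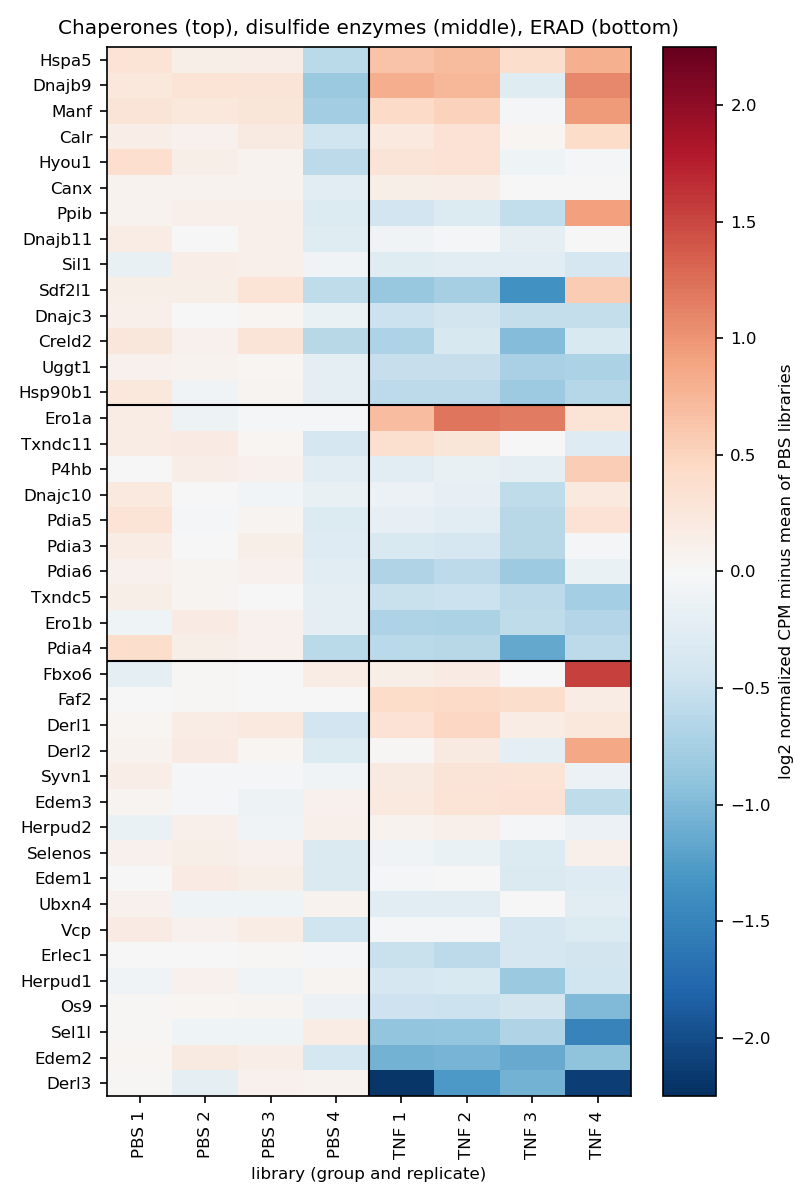
Color gives the log2 normalized CPM of each of the 41 members in each of the 8 libraries, minus the mean of the PBS libraries, with chaperones, disulfide enzymes and ERAD genes separated by lines and ordered by fold change within each. The column of PBS replicate 4 is blue for most folding genes, and the lowest rows of the ERAD block (Sel1l, Edem2 and Derl3) are blue in all TNF libraries.

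The libraries of a group also differed among themselves. PBS replicate 4 was the lowest of the 4 PBS libraries for 22 of 24 folding genes and for 10 of 17 ERAD genes. Relative to the mean of PBS, the median folding gene was at -0.29 on the log2 scale in this library and at 0.10 to 0.16 in the other PBS libraries, while the median ERAD gene was at -0.02 and 0.02 to 0.05. In TNF, replicate 3 was the lowest library for 18 of 24 folding genes and replicate 4 the highest for 14. The median folding gene was at -0.55 in TNF replicate 3, -0.02 in TNF replicate 4 and -0.26 and -0.25 in the other TNF libraries, and the median ERAD gene at -0.31 and -0.29 in replicates 3 and 4 and at -0.05 in both others. With both replicates 4 left out, a choice made after the data were seen, 5 members were called higher and 24 lower, beside 29.2% and 27.7% of all genes tested in that fit. The median log2 fold change was then -0.40 for folding genes and -0.22 for ERAD genes, beside -0.02 for all genes.

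With all 8 libraries, the summed level separated ERAD genes by group and folding genes not. The 17 ERAD genes together had 1901, 1958, 1900 and 1709 normalized CPM in PBS and 1552, 1587, 1433 and 1358 in TNF. All TNF libraries were below all PBS libraries, with means of 1867 ± 109 and 1482 ± 106 (SD, n = 4). Of all tested single genes, 42.1% had no overlap between the groups. The 24 folding genes had 7183, 7077, 7097 and 5325 in PBS and 6034, 6285, 5461 and 8111 in TNF. These values overlapped, with means of 6670 ± 898 and 6473 ± 1145, and TNF replicate 4 was the highest of all 8 libraries. The overlap came from the replicates 4 of both groups. In replicates 1 to 3 the folding sums were apart, at 7077 to 7183 in PBS and 5461 to 6285 in TNF. P4hb weighs heavily in the folding sum. As a percentage of all counts, without any scaling, folding genes took 0.723% to 0.902% in PBS and 0.363% to 0.667% in TNF, and ERAD genes 0.202% to 0.239% and 0.0609% to 0.172%. On this scale TNF replicate 4 was the lowest library in both groups of genes.

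**Figure D5:**
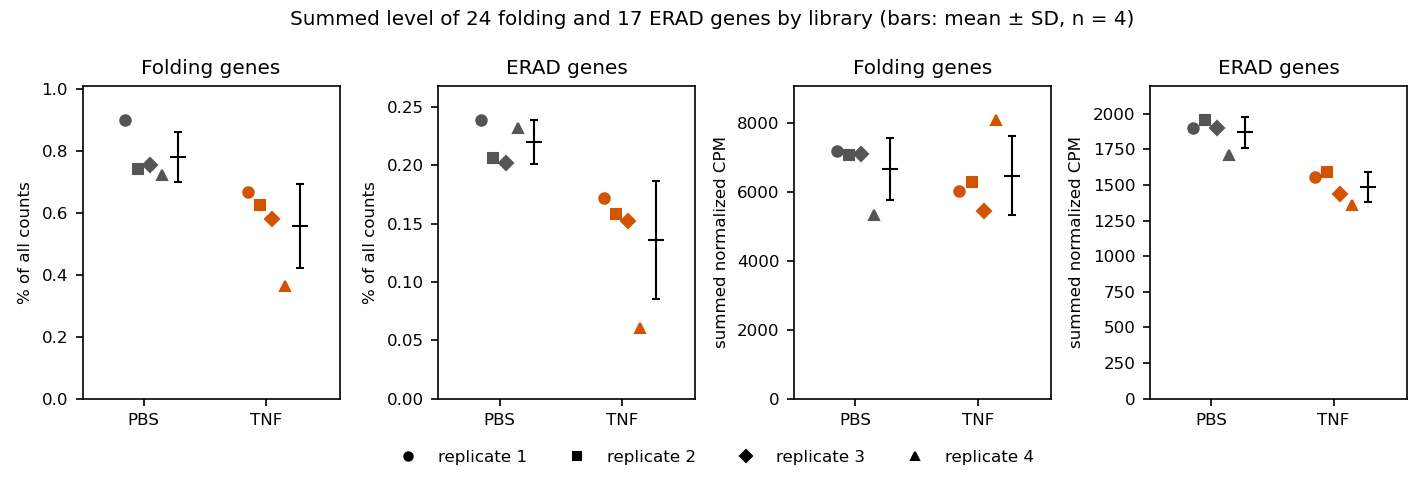
Sum over the 24 folding or the 17 ERAD genes in each library, as a percentage of all counts (left pair) and as normalized CPM (right pair), with the mean ± SD of 4 libraries beside the points. The percentages are lower in all TNF libraries for both sets, whereas on the normalized scale only the ERAD sums are, and TNF replicate 4 is lowest on the left and highest for folding genes on the right.

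Other genes of the same pathways were taken from lists that do not contain the members. Of 41 other ER folding genes 36 were tested, and 3 were called higher (8.33%) and 7 lower (19.4%), with a median log2 fold change of -0.18. The share called lower lies next to the 19.6% of all tested genes, and the share called higher is below their 23.4%. Those with the smallest p were Tor3a (0.53), Tor1a (0.47) and Txndc12 (0.44) among the higher genes, the first pair being ATPases of the ER and nuclear envelope lumen and the third a thioredoxin-like protein. Among the lower genes they were Txndc16 (-0.71) and Tmx4 (-0.97), both thioredoxin-related, and Cnpy4 (-0.92), a relative of Cnpy3, a chaperone of Toll-like receptors. These lower genes were all at low levels, from 2.60 to 10.8 normalized CPM in PBS. With that scaling left out (library size alone) 0 genes of the list were called higher and 10 lower, with Txndc12 at a log2 fold change of -0.001, and without TNF replicate 4 the counts were 3 and 14. All tested genes had 5.66% higher and 18.1% lower calls by library size alone, and 26.6% and 23.8% without TNF replicate 4. Each of the 3 higher calls was lost without some of the libraries, PBS replicate 2 among them (adjusted p 0.0523 to 0.0742).

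Of 47 other ERAD genes, 46 were matched by symbol and 44 tested, with 11 called higher (25.0%) and 7 lower (15.9%) and a median log2 fold change of 0.13. These shares are close to the 23.4% and 19.6% of all tested genes. The 3 higher genes with the smallest p were Ube2j2, Ube2j1 and Rnf121. Ube2j2, a ubiquitin-conjugating enzyme of the ER membrane, had 15.3, 16.4, 19.2 and 15.1 normalized CPM in PBS and 39, 45.2, 42.4 and 34.8 in TNF (log2 1.29, SE 0.13, edgeR adjusted p = 1.75e-05). Ube2j1, its relative, had 40.4 to 45.2 in PBS and 69.0 to 91.7 in TNF (log2 0.92), and Rnf121, an ER ubiquitin ligase, 11.4 to 12.8 and 21.2 to 43.7 (log2 1.22). In none of the 3 did the groups overlap. The lower genes with the smallest p were Rnf103 (log2 -1.06), Tmem129 (-0.72) and Stub1 (-0.44), all ubiquitin ligases. By library size alone the median of the other ERAD genes was -0.25, with 0 called higher and 4 lower, and Ube2j2, Ube2j1 and Rnf121 kept their sign without a call. Without TNF replicate 4, 17 were called higher and 8 lower. The shares over all genes under these settings are those just given.

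Of the 12 sensors and factors of the UPR, all were tested, 2 were called higher (16.7%) and 4 lower (33.3%), where all tested genes had 23.4% and 19.6%, so that a call in either direction was about as frequent as in the background (6 of 12 against 43.0%). Xbp1, whose spliced product acts on UPRE and ERSE elements, had 248, 265, 258 and 224 normalized CPM in PBS and 508, 608, 673 and 478 in TNF. Its lowest TNF value was well above its highest PBS value (log2 1.19, SE 0.15, edgeR adjusted p = 0.000135). Gene counts do not tell its spliced from its unspliced form. Eif2ak3, the sensor PERK, was higher too (log2 0.69, edgeR adjusted p = 0.00150). The lower genes with the smallest p were Mbtps1 (log2 -0.50), the protease that activates Atf6, Atf6b (-0.69) and Ddit3 (-0.68), the factor CHOP of the PERK branch. By library size alone 0 of the 12 were called higher and 2 lower, beside 5.66% and 18.1% of all tested genes, and Xbp1 had a log2 fold change of 0.84 (adjusted p = 0.0672).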

How the data were processed

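RNA-seq libraries (TruSeq Stranded mRNA) came from sorted Paneth cells of 4 PBS and 4 TNF mice. Raw counts per Ensembl gene, not normalized, were deposited by the authors. Their processing notes name FastQC 0.12, STAR 2.7.10a, DESeq2 and build mm39. The study's methods describe a joint reprocessing of many series, with STAR and Salmon on a GENCODE annotation. They do not say that the deposited whole-number counts came from it, and name another STAR release than the notes. The counter, annotation and use of strand behind these counts were therefore not given in the sources used here, and counts of overlapping and antisense genes are uncertain.

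Of 55414 IDs, 54749 matched GENCODE M39. Genes that passed filterByExpr were tested with edgeR 4.0.16 (R 4.3.3, quasi-likelihood F test, TMM, no covariate, Benjamini-Hochberg over 13368 genes) and called at an adjusted p under 0.05. Normalized CPM are counts over the TMM-adjusted library size, levels per kilobase use the union of exons, and folds are TNF over PBS. P-values set the difference between the groups against the spread among the libraries of a group. No libraries were duplicates. Counts were also simulated from the PBS means, with the same dispersion for all genes and 200 genes drawn to change. Among 13454 genes, 90.4% of 83 genes changed by 1 on the log2 scale and 100% of 110 changed by 2 were recovered, with 12 false calls. The simulation held no library like TNF replicate 4 and far fewer changed genes than were called in the data. Its rates therefore do not carry over to these data.

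Members and lists were chosen with earlier results of these data known. Values per library are given for the 6 folding and 6 ERAD members with the smallest p and for Hspa5, Hsp90b1, Sel1l, Syvn1 and Derl3, and from other lists the 3 called genes with the smallest p per direction are named. Single values of further members and Muc2 were chosen after they were seen. The finer groups (HSP70 cycle, glycoprotein folding cycle and the roles within ERAD) follow known roles but were formed after the values were seen. Alternatives tried: library size alone, RLE scaling, scaling that leaves out Defa genes, no filter, at least 1 CPM in 4 libraries, DESeq2 1.42.0, limma-voom (limma 3.58.1), a block for replicate number, adjusted p under 0.01, other gene lengths, and each library left out.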

Additional observations from a re-analysis of the deposited data

Results flagged for a closer look

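In 16 of 82 groups of 4 values (41 members in PBS and in TNF), a library lay further from the others than Dixon's criterion for 4 values allows. Chance flags about 1 in 20 such groups, or 4.1 here, but members of 1 library are not independent. PBS replicate 4 was low in 9 of them. It held 186 normalized CPM for Canx (others 230 to 232), 40.4 for Dnajb9 (84.4 to 89.0), 52.1 for Manf (106 to 110), 165 for Uggt1 (197 to 203), 194 for Ppib (251 to 260), 273 for Pdia6 (342 to 351), 172 for Os9 (192 to 195), 142 for Vcp (207 to 221) and 65.6 for Selenos (87.3 to 89.4). TNF replicate 4 was high for P4hb at 3315 (1892 to 2003), for Ppib at 452 (163 to 192) and for Fbxo6 at 18.6 (6.49 to 7.34), and low for Edem3 at 80.1 (138 to 148) and for Os9 at 94.1 (135 to 141). TNF replicate 3 was low for Pdia4 at 33.4 (47.8 to 49.0) and high for Ubxn4 at 62.9 (52.0 to 52.2).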

How the results depend on the processing

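The downward split of calls kept its direction under all settings tried, with 10 to 24 members called lower and 0 to 5 higher. By library size alone, which moves the median log2 fold change of all genes to -0.378, 3182 genes were called in all (757 higher, 2425 lower) in place of 5747, a downward split of all genes too, 0 members were higher (0 folding, 0 ERAD) and the medians were -0.621 for folding and -0.521 for ERAD genes, which is -0.243 and -0.143 relative to that shift. With TNF replicate 4 also left out (chosen after seeing the data), all genes had 16.4% higher and 28.2% lower calls, 1 member was higher (1 folding, 0 ERAD), 15 folding genes were lower and the medians were -0.485 and -0.321. With both replicates 4 left out (also chosen after seeing the data), 5 members were higher (3 ERAD) and 24 lower (16 folding), and the folding median was -0.399. Without a filter 1 member was higher (1 folding, 0 ERAD), beside 13.0% higher and 12.0% lower calls over all genes. At an adjusted p under 0.01, 1 member was higher (1 folding, 0 ERAD) and 5 folding genes were lower, beside 16.6% and 12.6% of all genes. Leaving out each library gave 1 to 5 members, 1 to 3 folding genes and 0 to 3 ERAD genes called higher, beside 18.2% to 26.6% of all genes. The members called higher numbered 1 without PBS replicate 4 or TNF replicate 1 or 2, and 5 without TNF replicate 4.

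The same replicate number did not pair the libraries. Correlations of their deviations were 0.0229, 0.0663, -0.144 and -0.126, and 4 of the 8 libraries correlated best with the library of their own number in the other group, a hint from the data only. With the replicate block, under which 20.5% of all genes were called higher and 17.5% lower, 1 folding gene was called higher and 6 lower, and Hspa5, Creld2, Sil1 and Pdia6 were not called (adjusted p = 0.0706, 0.101, 0.0842 and 0.0664), while ERAD genes had 1 and 6 calls as before. Ppib was at -0.118 and P4hb at -0.024 under the block.

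Signs turned mostly in members that were not called. Log2 fold changes by library size alone were -0.253 for Hyou1, -0.165 for Calr, -0.307 for Canx, -0.003 for Manf, -0.566 for Ppib, -0.473 for P4hb, -0.23 for Txndc11, -0.169 for Syvn1, -0.071 for Derl1, -0.232 for Derl2, -0.193 for Edem3, -0.353 for Herpud2, -0.014 for Fbxo6 and -0.002 for Faf2, the only called member whose sign turned. With TNF replicate 4 left out as well they were -0.003 for Hyou1, -0.071 for Canx, -0.596 for Ppib, -0.371 for P4hb, -0.148 for Derl2, -0.108 for Herpud2 and -0.065 for Fbxo6. With both replicates 4 left out they were -0.018 for Hyou1, -0.537 for Ppib, -0.299 for P4hb and -0.089 for Derl2. Without a filter they were -0.057 for Ppib, -0.051 for P4hb and -0.025 for Herpud2. Ppib was at -0.086 with limma-voom and P4hb at -0.005 with RLE scaling and with DESeq2. Over the 8 fits that leave out a library, Hyou1 ran from -0.103 to 0.195, Canx from -0.050 to 0.098, Ppib from -0.430 to 0.185, P4hb from -0.206 to 0.092, Txndc11 from -0.056 to 0.211 and Herpud2 from -0.062 to 0.074. The causes were not tested. Levels per kilobase depend on the length used. P4hb and Calr stayed at ranks 1 and 2 with the canonical transcript, a length added after seeing the data, and Ppib then took rank 3 in place of 7. The comparisons of Ero1a with Ero1b, of Edem2 with Edem3 and of Txndc5 with Hspa5 and Pdia3 also changed with this length. Derl3 rests on the fewest counts, down to 19 in a library.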
